A study of Mus musculus with 6 samples.

Results

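The guanylate-binding proteins (GBPs) are large interferon-inducible GTPases, and the 10 mouse genes described here were chosen by name and found by Entrez gene identifier among the 36528 gene identifiers of the deposited tables. Gbp2, Gbp3, Gbp5 and Gbp7 lie in a cluster of 141.1 kb on chromosome 3, and Gbp4, Gbp6, Gbp8, Gbp9, Gbp10 and Gbp11 in one of 334 kb on chromosome 5. The transcripts were counted in 6 RNA sequencing libraries from mouse bone marrow HOXB-8 cells, a line of myeloid progenitors held in division by a homeobox transcription factor. The 3 libraries labelled Parental are Irf2 wild type and, per the extraction notes, carry a control guide RNA, Luc. The 3 labelled IRF2_KO carry a guide RNA against Irf2 (gRNA2), and the notes call the lines iMACs. No treatment, age or strain is given for either group. Nor do the labels say whether a line is 1 clone, or whether the 3 libraries stem from different cultures, and the spread behind each p-value is therefore that of these libraries and may be technical.

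GBPs assemble on the membranes of vacuoles that hold pathogens and on the surface of bacteria in the cytosol, where they help to break the vacuole open and to expose bacterial lipopolysaccharide to the inflammatory caspase that senses it. Their genes are switched on by interferons through transcription factors of the STAT family and through interferon regulatory factors, which bind short GAAA-containing elements in promoters. IRF2, the factor targeted here, binds the same kind of element and is known both as a repressor of interferon-stimulated genes and as an activator of others. Setting the IRF2_KO libraries against the Parental ones shows which GBP transcripts differ when this factor is targeted.

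Total counts were 33422590 to 39925038 in Parental and 29070160 to 34051219 in IRF2_KO. Irf2 itself lay between 41.1 and 42.4 CPM (read counts adjusted for library depth, with TMM scaling) in Parental and between 37.0 and 40.3 CPM in IRF2_KO. It did not pass the test (log2 fold change -0.08, edgeR adjusted p = 0.209), and since a guide RNA can disrupt a gene without lowering its transcript, this level does not check the labels. Of the progenitor and promyelocyte markers, Hoxb8, Myb, Mpo, Elane, Prtn3 and Ctsg were abundant in every library. Kit averaged 8.04 CPM in Parental and 0.827 CPM in IRF2_KO, and Cd34 had 2 reads over Parental and 3 over IRF2_KO. Of 8 markers of T and natural killer cells 5 had no read, and the list summed to at most 1.27 CPM in any library.

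The promoters of the chromosome 3 genes are shown because these genes moved together. The RefSeq promoter table (GRCm38.p6) has entries for those 4 members and for Gbp2b, a further GBP gene of that cluster, and none for Gbp4, Gbp6, Gbp8, Gbp9, Gbp10 and Gbp11. The 250 bases before a start site of each gene are printed, all on the plus strand, with capitals where either of 2 motifs was found. One is the core of the interferon-stimulated response element, spelled GAAA, any 2 bases, GAAA (on the other strand TTTC, any 2 bases, TTTC). The other is the gamma-activated site, TTCNNNGAA, which reads the same on either strand.
Gbp5 (chr3:142496684-142496933): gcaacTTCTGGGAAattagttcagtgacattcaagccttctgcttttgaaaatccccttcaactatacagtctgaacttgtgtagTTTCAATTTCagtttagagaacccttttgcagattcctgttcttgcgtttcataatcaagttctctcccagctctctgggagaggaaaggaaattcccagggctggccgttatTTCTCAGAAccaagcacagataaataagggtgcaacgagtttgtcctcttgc
Gbp7 (chr3:142530086-142530335): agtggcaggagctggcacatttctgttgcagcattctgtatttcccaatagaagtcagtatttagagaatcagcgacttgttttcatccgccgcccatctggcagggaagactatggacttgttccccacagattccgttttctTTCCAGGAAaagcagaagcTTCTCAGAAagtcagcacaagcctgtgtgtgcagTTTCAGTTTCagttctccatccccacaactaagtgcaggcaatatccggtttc
Gbp3 (chr3:142559794-142560043): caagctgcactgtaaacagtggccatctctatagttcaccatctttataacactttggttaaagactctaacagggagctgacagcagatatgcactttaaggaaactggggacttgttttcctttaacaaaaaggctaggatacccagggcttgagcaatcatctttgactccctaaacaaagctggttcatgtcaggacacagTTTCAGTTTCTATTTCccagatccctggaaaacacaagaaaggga
Gbp2 (chr3:142620413-142620662): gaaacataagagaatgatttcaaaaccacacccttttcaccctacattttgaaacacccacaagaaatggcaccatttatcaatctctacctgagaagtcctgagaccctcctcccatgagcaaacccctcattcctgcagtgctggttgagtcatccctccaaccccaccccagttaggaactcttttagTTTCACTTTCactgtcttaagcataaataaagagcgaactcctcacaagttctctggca
Gbp2b (chr3:142594597-142594846): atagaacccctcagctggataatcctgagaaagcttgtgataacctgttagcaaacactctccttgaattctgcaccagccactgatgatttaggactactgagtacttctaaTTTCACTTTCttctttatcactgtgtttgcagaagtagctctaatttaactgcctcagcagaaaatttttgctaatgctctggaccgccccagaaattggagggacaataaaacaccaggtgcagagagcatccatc

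All 5 of these printed windows held the response element core, against 2.98% of the 32851 promoters in the table. The genes were picked because they moved together, and no chromosome 5 window was available, so these shares test no enrichment. Counted back from the start site, it began at base -53 in Gbp7, -59 in Gbp2, -137 in Gbp2b and -165 in Gbp5. Gbp3 held 2 overlapping matches, at -45 and -39. The window of a second start site of Gbp3, at 142560356, was not printed and held neither motif. The gamma-activated site occurred in 7.02% of all promoters, with 2 matches each in Gbp5 and Gbp7 and none in the windows of Gbp3, Gbp2 and Gbp2b. A match describes letters only and shows no binding.

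The chromosome 3 genes were near silent or low in Parental and rose by 23.4 to 216 fold in IRF2_KO, while the chromosome 5 genes moved by at most 2.24 fold and in both directions. Altogether 7 members were higher and 3 lower, and all 10 passed the low-count filter and the test. Among the 13353 genes tested 47.2% were called, 23.6% higher and 23.6% lower, so that a call alone says little. A rise of 16 fold or more was rare, at 0.359% of tested genes, and all 4 chromosome 3 members had one. The median log2 fold change was 7.22 over the chromosome 3 members and 0.04 over those of chromosome 5, beside -0.01 over all genes tested. Parental and IRF2_KO libraries did not overlap in CPM for any member, 7 being higher and 3 lower. The same held for 54.0% of all tested genes, 26.4% higher and 27.6% lower, so that non-overlap too is common here. Levels below are the authors' size-factor-adjusted RPKM, reads per kilobase of gene scaled by library depth, which allow genes to be compared, and fold changes and tests come from the counts. Fold changes compare RNA pools, in which fewer cells of a type and less RNA per cell cannot be told apart.

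**Figure D1:**
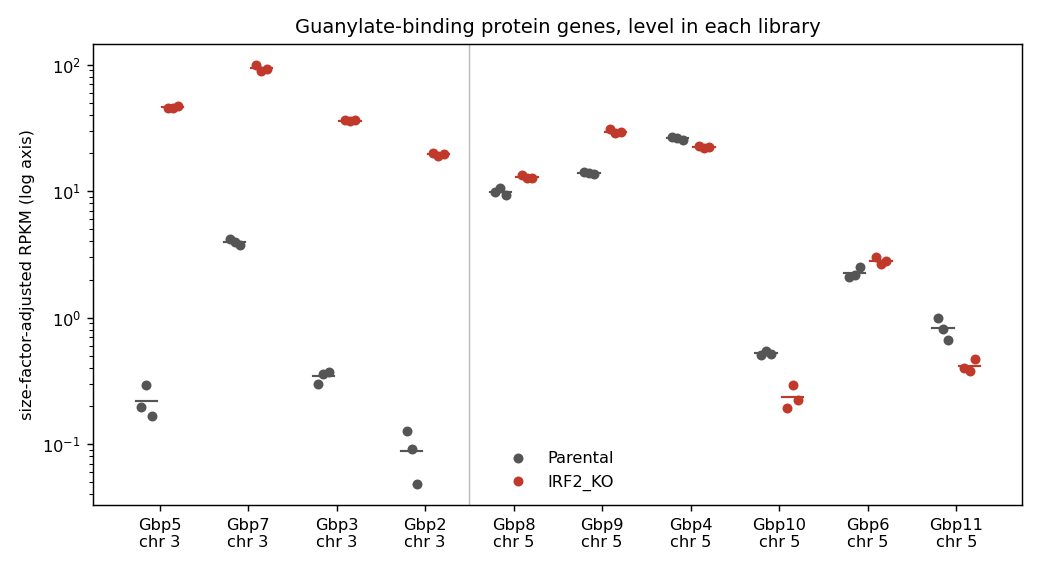
Size-factor-adjusted RPKM (log axis) of each GBP gene in the 3 Parental (grey) and 3 IRF2_KO (red) libraries, in chromosomal order, with points for libraries and short lines for group means. The 4 chromosome 3 genes are at most 4.15 RPKM in Parental and at least 19.1 RPKM in IRF2_KO, while no chromosome 5 gene differs between the group means by more than 2.24 fold in CPM.

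Gbp2 (chromosome 3, 142620663 to 142638008) encodes a GBP that is anchored to membranes by a lipid tail and gathers on vacuoles of the parasite Toxoplasma. Its Parental libraries held 13, 8 and 5 reads and its IRF2_KO libraries 1534, 1400 and 1686. In RPKM this was 0.127, 0.0917 and 0.0480 against 19.9, 19.1 and 19.5. Every IRF2_KO library was at least 149 fold above the highest Parental one in CPM. The rise was 216 fold (log2 fold change 7.75, SE 0.13, edgeR adjusted p = 3.04e-18), the 9th largest of all tested genes. Only 1 of the 3 Parental libraries reached the CPM level of the filter, so Gbp2 was tested because of its level in IRF2_KO.

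Gbp5 (chromosome 3, 142496934 to 142522344), another lipid-anchored member that has been linked to activation of the NLRP3 inflammasome, behaved much like it. It stood at 24, 31 and 21 reads in Parental (0.195, 0.296 and 0.168 RPKM) and at 4165, 4036 and 4938 reads in IRF2_KO (45.1, 45.8 and 47.5 RPKM). The groups lay far apart, and the rise of 212 fold was the 10th largest (log2 fold change 7.72, SE 0.09, edgeR adjusted p = 6.34e-20).

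Gbp3 (chromosome 3, 142560016 to 142573213) went from 0.299, 0.360 and 0.369 RPKM in Parental to 36.3, 35.9 and 36.2 RPKM in IRF2_KO. The IRF2_KO libraries agreed closely, with an SD of 1.16% of their mean CPM. Gbp3 rose 105 fold (log2 fold change 6.71, SE 0.08, edgeR adjusted p = 3.53e-20).

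Gbp7 (chromosome 3, 142530336 to 142550151), which has been linked to assembly of the phagocyte NADPH oxidase, was already clearly present in Parental. Its levels were 4.15, 3.98 and 3.78 RPKM there and 99.3, 88.2 and 92.4 RPKM in IRF2_KO. The rise of 23.4 fold was the smallest of the cluster (log2 fold change 4.55, SE 0.06, edgeR adjusted p = 8.45e-20), yet Gbp7 reached the highest level of any GBP. It exceeded 93.9% of tested genes in mean RPKM in IRF2_KO, against 34.2% in Parental.

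Gbp2b (chromosome 3, 142594816 to 142619179) lies between Gbp3 and Gbp2 and is not one of the 10. It had no read in any library, which allows up to 0.0751 to 0.103 CPM per library at 3 reads, a limit for counting error only. Its coding sequence is 82.5% identical to that of Gbp2, and 1.84% of its 50-base stretches also occur in Gbp2. Its promoter window, printed above, holds the same response element core as that of its neighbours.

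On chromosome 5, Gbp9 (105076464 to 105110357) changed most among the well-expressed members. It stood at 14.2, 13.9 and 13.5 RPKM in Parental and at 31.0, 28.6 and 29.1 RPKM in IRF2_KO, a rise of 2.12 fold (log2 fold change 1.08, SE 0.05, edgeR adjusted p = 3.98e-12). A rise of 2 fold or more was seen in 4.79% of tested genes. Gbp8 (105012513 to 105053609) rose 1.29 fold, from 9.85, 10.5 and 9.40 RPKM to 13.5, 12.6 and 12.6 RPKM (edgeR adjusted p = 6.87e-05). For Gbp6 (105270702 to 105295871) the levels were 2.09, 2.16 and 2.53 RPKM in Parental and 3.00, 2.67 and 2.80 RPKM in IRF2_KO. That rise of 1.24 fold was the least separated of all (edgeR adjusted p = 0.00659), with the lowest IRF2_KO library 1.04 fold above the highest Parental one in CPM.

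The other 3 chromosome 5 members were lower in IRF2_KO. Gbp4 (105115767 to 105139586) was the most abundant GBP in Parental, at 26.8, 26.4 and 25.4 RPKM, and lay at 22.9, 21.9 and 22.4 RPKM in IRF2_KO. It fell by 0.23 on the log2 scale (SE 0.04, edgeR adjusted p = 0.00028). Gbp10 (105215699 to 105239533) had 73, 67 and 76 reads in Parental and 21, 30 and 27 in IRF2_KO, which is 0.509, 0.547 and 0.520 against 0.195, 0.291 and 0.222 RPKM. It fell by 1.16 on the log2 scale (SE 0.20, edgeR adjusted p = 0.000116). Gbp11 (105323026 to 105346476), annotated as a transcribed pseudogene in RefSeq, had 109, 76 and 75 reads in Parental and 33, 30 and 44 in IRF2_KO. It fell by 0.98 on the log2 scale (SE 0.20, edgeR adjusted p = 0.000494). A fall of 2 fold or more occurred in 2.26% of tested genes. Tested against a minimum change of 1.5 fold, Gbp9 and Gbp10 were still called on chromosome 5, and Gbp4, Gbp6, Gbp8 and Gbp11 were not (glmTreat adjusted p of 0.0999 for Gbp11 and 1 for the others).

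How far the chromosome 5 genes can be told apart depends on their sequences, since the authors counted uniquely aligned reads only. In GENCODE M21 the 15 pairs of chromosome 5 members have 90.0% to 98.4% identical coding sequences, against 64.8% to 78.6% for the 6 pairs on chromosome 3 and 64.1% to 75.9% between the clusters. Gbp6 and Gbp10 are the closest pair, with 30 differences in 1833 coding bases. The first 180 coding bases of Gbp6, Gbp10 and Gbp4 show how little there is to tell them apart, with capitals where a base differs from Gbp6.
Gbp6: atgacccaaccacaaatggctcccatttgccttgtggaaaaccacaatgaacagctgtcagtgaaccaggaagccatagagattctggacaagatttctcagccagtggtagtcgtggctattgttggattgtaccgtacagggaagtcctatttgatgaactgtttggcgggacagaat
Gbp10: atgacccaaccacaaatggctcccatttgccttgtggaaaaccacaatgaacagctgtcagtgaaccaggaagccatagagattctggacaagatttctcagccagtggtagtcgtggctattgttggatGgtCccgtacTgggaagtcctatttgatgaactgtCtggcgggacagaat
Gbp4: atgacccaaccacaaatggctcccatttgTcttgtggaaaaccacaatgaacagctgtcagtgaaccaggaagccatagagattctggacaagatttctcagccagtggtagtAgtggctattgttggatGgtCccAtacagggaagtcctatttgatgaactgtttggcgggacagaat

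Over whole transcripts, 76.2% of the 50-base stretches of Gbp10 and 49.9% of those of Gbp6 also occur in genes elsewhere in the annotation, chiefly in each other. The share was 19.2% for Gbp11, 12.9% for Gbp8, 6.54% for Gbp4 and 4.25% for Gbp9. On chromosome 3 it was 1.44% to 3.75%. The counts of Gbp10 and Gbp6 therefore rest on a part of each transcript, and their levels are uncertain. A gene model that spans both, Gm43302, also overlaps them in GENCODE. Gbp8 shares 61 exonic bases with Gbp4 there and Gbp9 shares 60 with Gbp8, a small part of each. Stretches of 50 bases shared with overlapping gene models are not in the shares above. They made up 11.2% for Gbp8, 6.13% for Gbp9 and 4.11% for Gbp4. For Gbp10 and Gbp6, chiefly with Gm43302, they made up 72.1% and 65%, and for Gbp7 on chromosome 3 10.5%. Unique alignment may therefore also limit the counts of these members. Read length is not given in the sources used here, and 50 bases were taken for illustration.

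**Figure D2:**
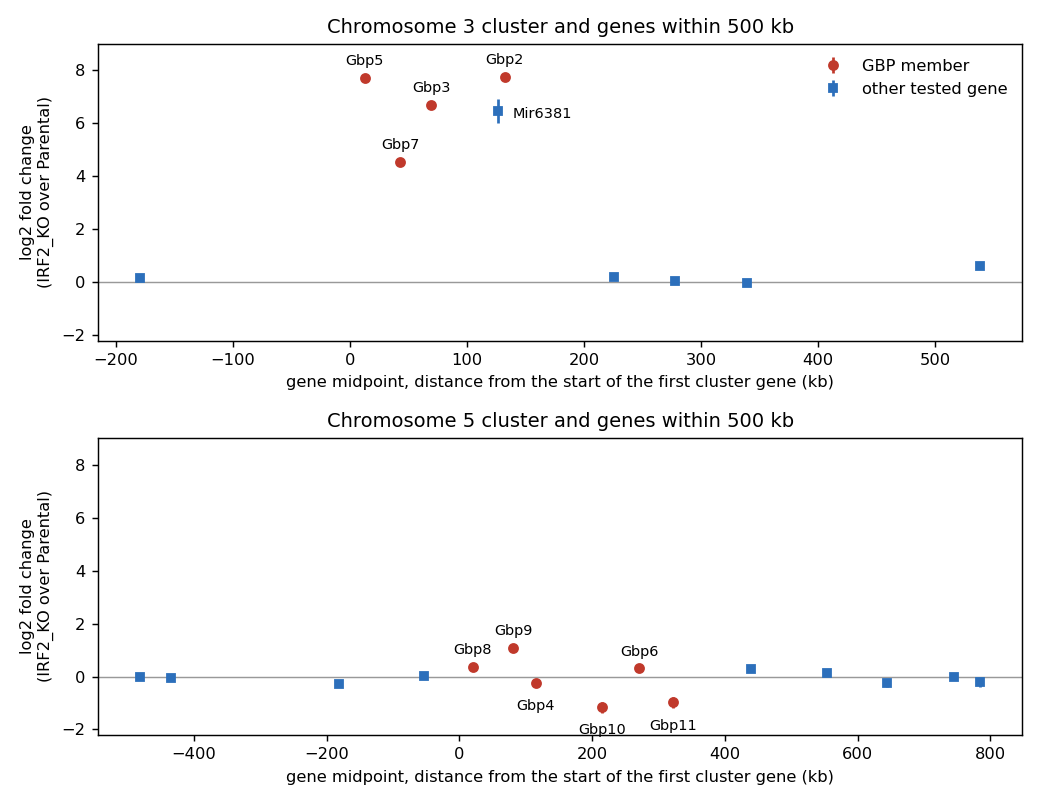
Log2 fold change of IRF2_KO over Parental for the GBP members (red, labelled) and for the other tested genes within 500 kb of either cluster (blue), by the distance in kb of the gene midpoint from the start of the cluster, with bars for the SE, mostly hidden by the symbols. On chromosome 3 the GBP genes and Mir6381 lie at 4.55 or above and the flanking genes at 0.63 or below, and on chromosome 5 all points lie between -1.16 and 1.08.

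Genes around the chromosome 3 cluster did not share rises of that size. Of the 6 other tested genes within 500 kb, 4 were higher and none lower, but only Mir6381, inside Gbp2, by more than 0.63 on the log2 scale. Outside the cluster Kyat3, a kynurenine aminotransferase gene 63.0 kb away, had a log2 fold change of 0.20 (SE 0.07, edgeR adjusted p = 0.0217). 4930519L02Rik, 393 kb away, rose by 0.63 and Pdlim5, 101 kb away, by 0.17, a call lost without Parental 3 or IRF2_KO 3 (adjusted p = 0.0755 and 0.0564). Gtf2b and Pkn2 did not pass the test (0.05 and -0.04). Mir6381 (142623860 to 142623946), a microRNA hairpin of 87 bases within Gbp2, had 2 reads over Parental and 172 over IRF2_KO and was tested only because of its level in IRF2_KO. It overlaps an exon of Gbp2 by 24 bases, and whether strand was used in counting is not given. Reads of Gbp2 and of the hairpin therefore cannot be told apart. Around the chromosome 5 cluster 1 of 9 tested genes rose, Lrrc8b, a subunit gene of volume-regulated anion channels (0.27), and 1 fell, Zfp951 (-0.29). Among all tested genes 23.6% were higher and 23.6% lower. Abcg3, 29.7 kb away, did not pass the test (log2 fold change 0.01, edgeR adjusted p = 0.907), and its groups overlapped.

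The make-up of GBP transcripts changed with these shifts. The summed RPKM of the 10 members was 59.2, 59.0 and 56.5 in Parental and 272, 255 and 263 in IRF2_KO, 4.53 fold as much. Chromosome 3 genes supplied 7.93% ± 0.177 (SD, n = 3) of it in Parental and 74.0% ± 0.212 (SD, n = 3) in IRF2_KO. Gbp4 alone made up 45.0% ± 0.281 (SD, n = 3) in Parental and 8.50% ± 0.0662 (SD, n = 3) in IRF2_KO, where its level itself was only slightly lower. Gbp7 went from 6.81% ± 0.170 to 35.4% ± 1.05 (SD, n = 3 each) and Gbp5 from 0.376% ± 0.109 to 17.5% ± 0.808 (SD, n = 3 each). These shares sum to a whole, so one member's rise lowers the others.

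**Figure D3:**
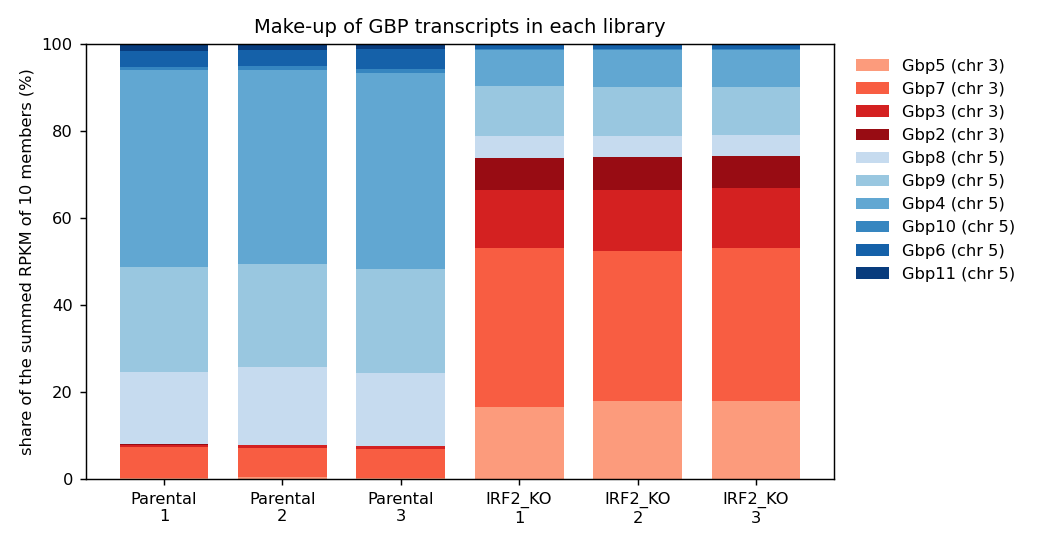
Share of the summed RPKM of the 10 members that each gene took in each library (stacked bars, percent), with chromosome 3 genes in reds and chromosome 5 genes in blues. Reds take 7.73% to 8.06% in the Parental libraries and 73.9% to 74.3% in the IRF2_KO libraries.

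In Parental the order of mean levels was Gbp4 (26.2 RPKM), Gbp9 (13.9), Gbp8 (9.92), Gbp7 (3.97), Gbp6 (2.26), Gbp11 (0.822), Gbp10 (0.525), Gbp3 (0.343), Gbp5 (0.220) and Gbp2 (0.0890). In IRF2_KO it was Gbp7 (93.3 RPKM), Gbp5 (46.1), Gbp3 (36.1), Gbp9 (29.6), Gbp4 (22.4), Gbp2 (19.5), Gbp8 (12.9), Gbp6 (2.82), Gbp11 (0.417) and Gbp10 (0.236). No 2 neighbours in either order overlapped in their libraries. Uncertainty about gene length is larger than that spread. The length implied by the deposited RPKM of Gbp5 was 3761 bases, whereas its exons in GENCODE M21 cover 6637, so its place in the order may differ with the gene model.

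Genes outside the family with the profile most like the mean of the 4 chromosome 3 members were found by the distance between centred log2 CPM over the 6 libraries. The nearest were Xaf1 on chromosome 11 (distance 0.63), Armh4 on chromosome 14 (0.77), Usp18 on chromosome 6 (0.92), Ifit1 on chromosome 19 (1.05) and Ifi27 on chromosome 12 (1.25). Gbp3 itself lay at 0.42 and Gbp7 at 2.51, and the chromosome 5 members at 6.74 to 9.45. With 2 groups, this distance mostly reads the size of the difference between them on that log2 CPM scale. The scale adds a prior count of 2 and so compresses low values. In the edgeR fit the log2 fold change of Xaf1 was 10.2. Usp18 rose from 0.740 ± 0.151 to 52.6 ± 1.76 CPM (SD, n = 3) while the reads of Xaf1 numbered 0 over Parental and 385 over IRF2_KO. Armh4 and Ifit1 had 7 reads each over Parental. Xaf1, Armh4 and Ifit1 were below the filter level in every Parental library and were tested because of their level in IRF2_KO.

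Genes that act before, beside and after the GBPs were taken from lists chosen for their roles. Counts of calls in each list are to be read beside the 47.2% of all tested genes that were called. Of 21 interferon genes, the ligands, 19 had no read in any library, Ifng among them. Ifnb1 had none over Parental and 3 over IRF2_KO, and Ifnk had 3 and 1, so no change was detectable at this depth. Interferon receptors and their kinases moved little: 4 of 8 tested rose and 3 fell, with log2 fold changes from -0.16 to 0.26. Ifnar2, a chain of the type I receptor, rose from 101 to 121 CPM and Ifngr1, a chain of the interferon gamma receptor, fell from 578 to 517 CPM.

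Of the STAT and IRF transcription factors 7 of 11 tested rose and none fell. Irf9, the DNA-binding part of the complex that acts at response elements, rose from 7.42 to 40.6 CPM (log2 fold change 2.45, SE 0.06, edgeR adjusted p = 2.31e-15). Irf7 rose by 4.24 and Irf5 by 1.05 on the log2 scale. Among feedback genes 4 of 7 rose and none fell. These were Usp18, Socs1, an inhibitor of JAK kinases (log2 fold change 1.07), Ptpn1 (0.39) and Pias1 (0.23).

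The immunity-related GTPases, which work with GBPs at vacuoles, rose in 4 of 5 tested members, and 9 of 14 were too low to test. Igtp rose by 2.89, Irgm2 by 2.38, Gm12250 by 1.87 and Irgm1 by 1.77 on the log2 scale, and Irgq fell by 0.18. Gm12250, with 32 reads over Parental, would have been tested on its level in IRF2_KO alone. Each of these rises was smaller than that of any chromosome 3 GBP and larger than that of any chromosome 5 GBP, though no test compared genes with each other. The atlastins, membrane-fusing GTPases related to GBPs by their GTPase domain, had 1 of 3 tested members higher, Atl3 by 0.30. Atl1 (0.08) and Atl2 (0.00) did not pass (edgeR adjusted p = 0.796 and 0.998), and the sign of each turned under some alternatives.

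Of 8 tested genes of prenylation, which attaches the lipid tail of some GBPs, 3 fell and 1 rose. Over all tested genes 23.6% were higher and 23.6% lower. Rce1 and Zmpste24, proteases that trim the lipid-modified end, fell by 0.30 and 0.28 on the log2 scale, and Fdps rose by 0.22. Fntb fell by 0.18, a call lost without Parental 3 or IRF2_KO 3 (adjusted p = 0.0635 and 0.0576). Genes of the ATG8 conjugation machinery, needed to place GBPs on vacuoles, rose in 3 of 11 and fell in 1. Map1lc3a rose by 1.24, Gabarap and Map1lc3b by 0.30 each, and Atg5 fell by 0.17, a call lost when Parental 1, Parental 3, IRF2_KO 2 or IRF2_KO 3 was left out (adjusted p = 0.0742, 0.161, 0.0711 and 0.156).

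Among inflammasome and pyroptosis genes, which act after GBPs, 4 of 8 tested were higher and 2 lower. Casp4, which encodes the lipopolysaccharide-sensing caspase, rose from 16.4 to 37.1 CPM. Gsdmd, whose product makes the pore, fell by 5.05 on the log2 scale, and the adaptor gene Pycard fell by 1.996. Il18, a cytokine gene with 18 reads over Parental and 39 over IRF2_KO, had a log2 fold change of 1.40, a call lost without IRF2_KO 2 (adjusted p = 0.0638). It was below the filter level in every Parental library and was tested because of its level in IRF2_KO. Of 8 genes on the oxidase list, 2 rose and 1 fell. The list also holds an autophagy receptor gene, which did not pass the test, and Cyba, which encodes the subunit linked to Gbp7. Cybb rose by 2.92 and Ncf1 by 0.34, Ncf4 fell by 0.30, and Cyba itself, at 0.14, missed the threshold (edgeR adjusted p = 0.0656). It was called higher without IRF2_KO 1 or Parental 3 (adjusted p = 0.000714 and 0.0205).

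**Figure D4:**
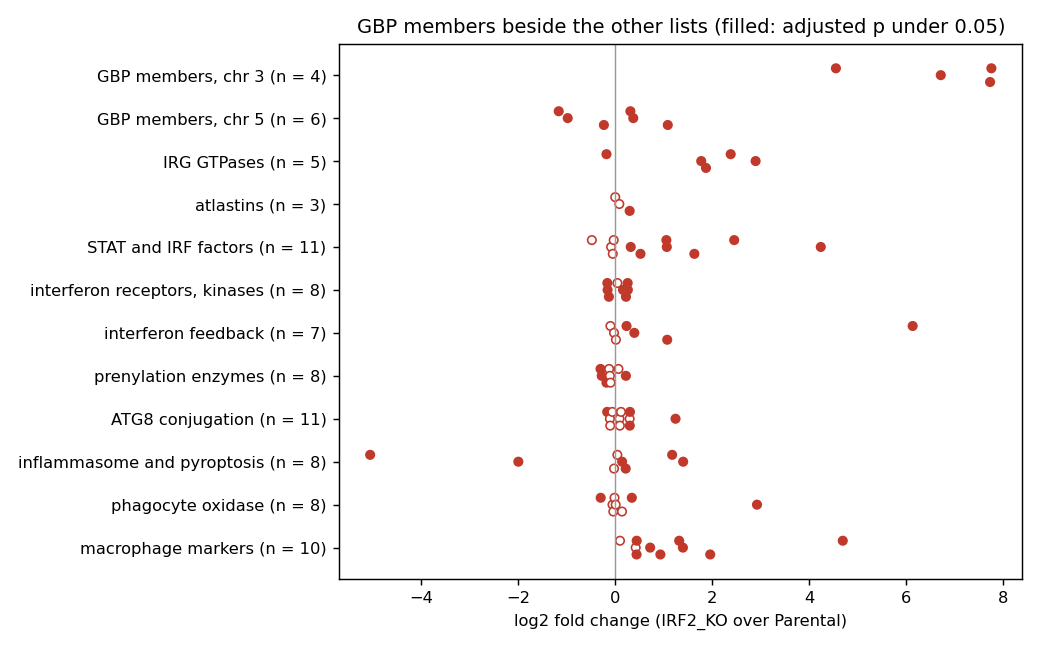
Log2 fold change of IRF2_KO over Parental for each tested gene of the named lists (points, filled where the edgeR adjusted p was under 0.05), with the GBP members in the top rows. The chromosome 3 members lie at 4.55 to 7.75, beyond each IRG GTPase (at most 2.89), and the chromosome 5 members between -1.16 and 1.08.

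Cell state markers differed between the same libraries, in which 23.6% of all tested genes were higher and 23.6% lower. Of the macrophage markers 8 of 10 tested were higher and 0 lower, 6 of 16 being too low to test, and the list summed to 445 to 459 CPM in Parental and 920 to 926 CPM in IRF2_KO. Lyz2, Itgam, Csf1r and Siglec1 were among those that rose (log2 fold changes 1.32, 0.93, 1.96 and 4.69), and Siglec1 is itself induced by interferon. Siglec1, with 8 reads over Parental, was tested because of its level in IRF2_KO. Cd163 went the other way, with 23 reads over Parental and 0 over IRF2_KO, and was too low to test, so the filter had a part in the count of markers called lower. Of the other untested markers C1qa, C1qb, C1qc, Marco and Vsig4, none had more than 2 reads over a group. Of the progenitor and promyelocyte markers 4 of 7 tested were lower and 1 higher. The falls were in Kit, Elane, Mpo and Myb (log2 fold changes -3.26, -1.69, -0.52 and -0.44). This list summed to 11930 to 12930 CPM in Parental against 9836 to 11275 CPM in IRF2_KO. Neutrophil markers rose in 5 of 10 and fell in 2, with sums of 297 to 308 and 339 to 342 CPM. B cell markers summed to at most 0.803 CPM and stromal and endothelial markers to at most 2.23 CPM. The tested macrophage markers had log2 fold changes from 0.0985 to 4.69. Those of the chromosome 3 GBPs ran from 4.55 to 7.75, and those of the chromosome 5 GBPs from -1.16 to 1.08. The part of these markers in the GBP result was not tested.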

How the data were processed

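For the 3 Parental and 3 IRF2_KO libraries a kit for stranded total RNA was used, per the labels' protocols, although their molecule is labelled polyA RNA, and this was not settled here. GSNAP and the build GRCm38 are named for the authors' alignment in the submitters' processing notes. The deposited counts are reads uniquely aligned to each gene model, per the file headers, so reads shared by near-identical genes are absent. The deposited RPKM values are size-factor-adjusted, per the file headers. They held the same counts rescaled, with 1 factor per library over 10251 genes.

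In R 4.3.3, edgeR 4.0.16 filtered the counts (filterByExpr, 13353 genes kept), scaled them by TMM (factors 0.987 to 1.02) and compared the groups by its robust two-sided quasi-likelihood test. Adjusted p-values follow Benjamini and Hochberg over all genes tested, and calls use 0.05. The script was tested on simulated data with known changes. An SE is the size of the log2 fold change over the root of the F statistic. No replicate number or batch is given in the labels, so libraries are numbered in record order and pair nothing. Within groups the mean chi-square per gene between libraries was 2.78 to 10.1, above sampling noise, so no library was taken for a repeat deposit of another, which does not show that they are separate cultures. RefSeq symbols matched 31049 gene identifiers and 174 of 176 list genes.

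The members and lists were chosen with earlier results of these data known. Beside the 10 members, up to 4 genes per list and among the neighbours were named by the smallest adjusted p, all tested genes of lists of 5 or fewer, and the 5 with the nearest profile. Kyat3, Gtf2b, Pkn2, Abcg3, Zfp951, Irgq and genes named for having few or no reads were named after their values were seen, and 1 gene that the rule names is not reported here. Each library was left out in turn, and other settings were DESeq2 1.42.0, scaling by RLE, by upper quartiles or by totals only, and limma 3.58.1 as voom and on log2(RPKM + 0.1) and log2(RPKM + 1), with other filters and thresholds.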

Additional observations from a re-analysis of the deposited data

How the results depend on the processing

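Of 248 values recomputed for the 10 members, their counts, their shares and their neighbours, 239 kept direction and side of the threshold, or stayed within the spread. No member changed direction under any alternative. The exceptions came from asking for a change beyond 1.5 fold and, for the chromosome 3 shares in each group, from using reads in place of RPKM. Beyond 1.5 fold 718 genes were higher and 301 lower (against 3146 and 3150), and 1 member was lower. Gbp4 (-0.23), Gbp6 (0.31), Gbp8 (0.37) and Gbp11 (-0.98) were no longer called. The count of members higher, 5 against 7, stayed within the margin set for counts. Chromosome 3 genes made up 9.94% of summed member reads in Parental and 75.5% in IRF2_KO when reads replaced RPKM, which does not correct for length. On the log2(RPKM + 1) scale, which compresses low values, the log2 fold changes fell to 4.24 for Gbp2, 4.79 for Gbp3, 5.27 for Gbp5, -0.30 for Gbp10 and -0.36 for Gbp11, all still called. Leaving out single libraries gave 7.43 to 8.12 for Gbp2, 0.25 to 0.41 for Gbp6 and -1.33 to -1.05 for Gbp10. With library size alone 42.8% of all calls were higher, against 50% with TMM. Of 1000 values recomputed for 59 named genes that are no members, 951 stayed the same, 42 crossed the threshold and 7 changed sign. Asking for a change beyond 1.5 fold lost many of the smaller calls, among them Myb, Mpo, Ncf1, Ncf4, Rce1, Zmpste24, Ptpn1, Gabarap, Ifnar2, Atl3 and 4930519L02Rik. The sign changes were those of the uncalled Atl1 and Atl2. Atl2 did so with library size alone (-0.0306), limma-voom (-0.0005) and no filter (-0.0127), and ranged from -0.0487 to 0.0507 with single libraries left out. Atl1 ranged from -0.1222 to 0.31 there, being negative without Parental 3. The cause was not tested. The call of Atg5 was also lost with DESeq2 and with limma on log2(RPKM + 0.1) and log2(RPKM + 1) (adjusted p = 0.0506, 0.0708 and 0.0742). No paired analysis was possible because the labels give no replicate numbers. Depth limits Gbp2, with 26 reads over Parental, and unique alignment limits Gbp6 and Gbp10.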

Other observations

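Other interferon-inducible GTPases outside the GBP and IRG families were scarce. Gvin1, a very large GTPase gene, had 35 reads over Parental and 116 over IRF2_KO and was called higher by 2.02 on the log2 scale (SE 0.31, edgeR adjusted p = 3.5e-05), though it would have been tested on its level in IRF2_KO alone. The dynamin-like antiviral genes Mx1 and Mx2 had no read over Parental and 14 and 12 over IRF2_KO, too few to test.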
